A study of Mus musculus with 9 samples.

Results

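The TetR-MYBTA line was compared with unmodified E14 cells by ATAC-seq, using 6 of the 9 libraries of the series, 3 from each line. The unmodified line (WT) is E14, a mouse embryonic stem cell line, in a variant called TOT2N. The TetR-MYBTA line is the same variant with a stably integrated TetR-MYBTA construct. A TetR line, the same variant with a stably integrated TetR construct, supplied 3 further libraries that took no part in choosing regions and were read only at the regions chosen. All 3 lines therefore share the TOT2N variant. Whether the construct line is 1 clone, where the construct sits, which promoter drives it and whether replicates came from separate cultures are not given in the sources used here, so a p-value here reflects the scatter among libraries alone, and that scatter may be technical. Peaks of the 6 libraries that overlapped by at least 1 bp were merged, which gave 97380 regions on the 19 autosomes. A region with a peak in 3 of 3 TetR-MYBTA libraries and 0 of 3 WT libraries is called TetR-MYBTA-only, and the reverse is called WT-only. There were 1401 TetR-MYBTA-only regions, 1.44% of all regions, and 3177 WT-only regions, 3.26%.

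In ATAC-seq the Tn5 transposase inserts sequencing adapters into DNA that nucleosomes leave accessible, so a peak marks an open stretch such as an active promoter, an enhancer or an insulator. TetR is the bacterial tetracycline repressor, which binds its operator DNA and is widely used to bring a fused protein domain to a chosen site. MYB regulates transcription in blood progenitors together with the coactivators CBP and p300. By its title the series deals with sustained MYB activity at enhancers and with enhancer-promoter contacts. The comparison asks which open regions the line with the TetR-MYBTA construct had that the unmodified cells lacked, and which it lacked.

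Where the other line had no peak within 1 kb, promoters in the 2 sets differed in their CpG dinucleotides, the C followed by G at which vertebrate DNA is methylated and which is dense in the CpG islands of housekeeping and developmental genes. The 5 promoters printed here show that contrast. Klhl31 and Angptl1 had a TetR-MYBTA-only region at their start and Pcdh15 had one at a transcript start inside the gene, and Msx2 and Krt18 had a WT-only region at their start. These genes were picked after their values were seen. Each line gives the 250 bases before the gene's start (for Pcdh15, before that internal start), 5′ to 3′ on the gene's strand, with every CpG in capitals, from RefSeq on GRCm38.p6.
Klhl31, chr9:77636482-77636731, plus strand: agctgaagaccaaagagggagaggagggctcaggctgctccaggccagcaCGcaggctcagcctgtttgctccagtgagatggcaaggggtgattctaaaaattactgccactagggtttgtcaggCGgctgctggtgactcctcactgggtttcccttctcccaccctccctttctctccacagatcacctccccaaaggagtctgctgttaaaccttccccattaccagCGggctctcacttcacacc
Pcdh15, chr10:73821617-73821866, plus strand: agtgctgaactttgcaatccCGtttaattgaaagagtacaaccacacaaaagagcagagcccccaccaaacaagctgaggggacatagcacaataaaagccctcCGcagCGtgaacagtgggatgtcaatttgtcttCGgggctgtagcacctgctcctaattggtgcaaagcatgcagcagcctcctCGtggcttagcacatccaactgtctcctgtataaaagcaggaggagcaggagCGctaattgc
Angptl1, chr1:156838773-156839022, plus strand: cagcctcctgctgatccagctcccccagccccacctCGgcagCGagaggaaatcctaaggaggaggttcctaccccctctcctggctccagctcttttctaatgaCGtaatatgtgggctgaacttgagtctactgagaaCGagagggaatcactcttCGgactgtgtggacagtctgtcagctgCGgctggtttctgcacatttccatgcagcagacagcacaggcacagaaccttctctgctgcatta
Msx2, chr13:53472781-53473030, minus strand: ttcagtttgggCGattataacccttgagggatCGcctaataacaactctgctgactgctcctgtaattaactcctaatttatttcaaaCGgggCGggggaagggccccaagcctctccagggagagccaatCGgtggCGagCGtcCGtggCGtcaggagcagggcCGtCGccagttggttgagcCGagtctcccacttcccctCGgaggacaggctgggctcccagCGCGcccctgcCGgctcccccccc
Krt18, chr15:102027966-102028215, plus strand: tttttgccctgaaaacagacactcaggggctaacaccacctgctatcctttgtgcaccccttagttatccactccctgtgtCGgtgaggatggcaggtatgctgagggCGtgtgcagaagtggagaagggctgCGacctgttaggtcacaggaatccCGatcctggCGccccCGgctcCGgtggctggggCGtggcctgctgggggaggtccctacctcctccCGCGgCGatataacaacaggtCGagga
The Klhl31 stretch holds 3 CpG, that of Pcdh15 holds 6 and that of Angptl1 holds 6. Msx2, a homeobox regulator, has 16, and Krt18, a keratin of simple and trophoblast epithelium, has 12. The regions at the first 3 stood low in the lists and were not called with all lists cut to the same length (mean places 19.99, 20.7 and 24.3 on a scale where 100 is the first row), like that of Krt18 (33.1), while that of Msx2 (56.4) was.

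Over all promoters the contrast depended on whether the other line had a peak nearby, as a description without a test. Windows from 250 bases before to 50 bases after were read for 31365 autosomal starts, of which a gene can have several. Among the 25 promoters at a TetR-MYBTA-only region with no WT peak within 1 kb, the median was 5 CpG per 300 bases, and 1 of them (4%) held 10 or more. Among the 183 promoters at a WT-only region with no TetR-MYBTA peak within 1 kb, the median was 16, and 132 (72.1%) held 10 or more. Promoters with a peak in all 6 libraries had a median of 22 and those with no peak in the 6 libraries a median of 4. Thus those 25 promoters were close to promoters without a peak and those 183 closer to open ones. Promoters with a peak in 3 of the 6 libraries, of both lines, had a median of 19 and 77.05% with 10 or more. Most of the 25 have symbols of the Gm, Rik or LOC kind and most of the 183 do not, so the sets also differ in kind of locus. The contrast was absent where the other line did have a peak within 1 kb: the 25 such TetR-MYBTA-only promoters had a median of 24 and 76% with 10 or more, and the 57 such WT-only promoters a median of 23 and 89.5%. The MYB recognition motif, searched on both strands as TAACNG or CAACNG, was in 13 of the 25 (52%), in 79 of the 183 (43.2%) and in 49.2% of all promoters. The promoters with a peak in all 6 libraries gave 45.1%.

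The 6 libraries had 18.2 M to 23.0 M tags and lists of 45136 to 63098 peaks, the shortest being TetR-MYBTA replicate 3. Tags in peaks made up 7.57%, 7.44% and 5.48% of all tags in the TetR-MYBTA libraries and 7.84%, 8.09% and 7.79% in WT, with no overlap between lines (two-sided exact permutation p = 0.1, the smallest that 3 against 3 libraries can give). That difference stands beside every count of regions given here, and its part in them was not tested. Peaks at gene ends of fixed marker genes did not tell cell types apart: 6 to 7 of 12 embryonic stem cell markers had one in the TetR-MYBTA libraries and 6 to 8 in WT, while 6 to 7 of 11 fibroblast markers and 4 of 10 blood progenitor markers had one over the 6 libraries. In every one of the 6 libraries a gene end of Sox2, Klf4, Tfcp2l1, Fgf4, Utf1 and Dppa5a was covered.

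Most differences between the lists were not shared by all replicates. A peak in all 6 libraries was found in 27332 regions (28.1%), while 14628 regions had a peak in 1 WT library alone and 13216 in 1 TetR-MYBTA library alone. The excess of WT-only over TetR-MYBTA-only regions went with list length. With every list cut to its first 45136 rows, the shortest length, 1997 of 74042 regions (2.7%) were TetR-MYBTA-only and 2041 (2.76%) WT-only. Without TetR-MYBTA replicate 3, the counts were 3525 TetR-MYBTA-only and 3710 WT-only regions. TetR-MYBTA-only regions numbered 2233 without TetR-MYBTA replicate 2 and 2162 without WT replicate 2. WT-only regions numbered 4839, 5454 and 4912 without TetR-MYBTA replicate 1, WT replicate 1 and WT replicate 3. With fewer libraries the criterion is easier to meet. Of the regions called on full lists, 837 TetR-MYBTA-only (59.7%) and 1212 WT-only regions (38.1%) were also called at equal length.

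Regions of one line lay low in the lists. A region's place is its row in a list as a percentage, 100 being the first row, averaged over the 3 libraries that have it. The median place was 33.5 for TetR-MYBTA-only and 30.8 for WT-only regions, against 69.3 for regions with a peak in all 6 libraries. Above place 50 were 280 TetR-MYBTA-only regions (19.99%) and 498 WT-only regions (15.7%).

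Some regions were called because the peak lay a short way aside in the other line. A WT peak lay within 1 kb of 173 TetR-MYBTA-only regions (12.3%), and a TetR-MYBTA peak within 1 kb of 419 WT-only regions (13.2%). At gene ends this held for 52 of 84 (61.9%) and 121 of 378 (32.0%). In 38 pairs a TetR-MYBTA-only and a WT-only region were neighbours, with centres 312 bp apart in the median. The centres of 33 pairs were closer than 386 bp, the smallest distance at which these lists keep peaks of 1 library apart, so 1 library could not list both peaks. At Gsk3a, a kinase gene of the WNT and insulin pathways, the TetR-MYBTA peak was at chr7:25238076-25238302 and the WT peak at chr7:25237757-25237966, at places 90.2 and 94.1. At Cbll1, which encodes a subunit of the RNA methylation complex, the TetR-MYBTA peak was at chr12:31499839-31500049 and the WT peak at chr12:31499483-31499689. Pde6d with Cops7b, 4933427D14Rik, Tmem229a, Dmrta1 and the intron of Cdh1, the E-cadherin gene, had such pairs as well. These genes had a peak in both lines, so their called regions mark a difference in peak position. They remain in the counts of called regions given below.

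TetR-MYBTA-only regions lay far from genes. Gene ends, with 1 kb to either side, held 84 of them (5.996%), gene bodies 411 (29.3%) and the space between genes 906 (64.7%). The corresponding shares of all regions were 17.3%, 37.0% and 45.7%. WT-only regions, with 11.9% at gene ends, 45.6% inside genes and 42.5% between genes, were also fewer at gene ends than all regions but more often inside genes. Regions with a peak in 3 of the 6 libraries, spread over both lines, had 15.3%, 39.2% and 45.5%. More than 100 kb from any gene were 491 TetR-MYBTA-only regions (35.0%) and 324 WT-only regions (10.2%), against 15.9% of all regions. The median distance to a gene end was 69.2 kb and 20.01 kb. Of the regions called without a peak of the other line within 1 kb, 67.8% of 1228 TetR-MYBTA-only and 43.6% of 2758 WT-only regions were between genes. When each library was left out in turn, 62.2% to 63.0% of TetR-MYBTA-only and 41.7% to 42.4% of WT-only regions were between genes.

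**Figure D1:**
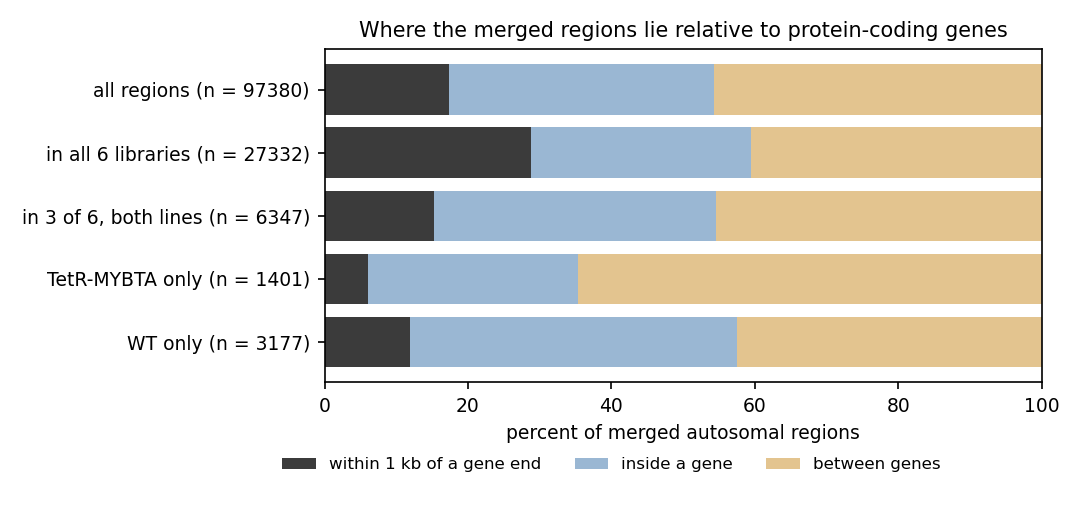
Share of merged autosomal regions (x axis, percent) at gene ends (1 kb to either side), in gene bodies and between genes, for all regions, regions in all 6 libraries, regions in 3 of 6 libraries of both lines, TetR-MYBTA-only and WT-only regions (number of regions in brackets). Between genes lie 64.7% of the TetR-MYBTA-only and 42.5% of the WT-only regions.

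Whole peak lists differed the same way. Inside genes were 33.7%, 33.6% and 32.3% of the autosomal peaks of the 3 TetR-MYBTA libraries and 36.3%, 37.0% and 36.6% of those of WT. The groups did not overlap, at 33.2 ± 0.784% and 36.6 ± 0.378% (SD, n = 3 each; two-sided exact permutation p = 0.1). Between genes were 46.0%, 46.2% and 43.9% of TetR-MYBTA peaks and 41.6%, 42.6% and 42.0% of WT peaks, again without overlap (exact p = 0.1). Gene ends took 21.4 ± 2.06% and 21.3 ± 0.915% (SD, n = 3 each; exact p = 1). That last difference turned around at equal length, where TetR-MYBTA was lower by 2.21 percentage points with no overlap (-2.21, exact p = 0.1), and without TetR-MYBTA replicate 3 (-1.08, exact p = 0.2).

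The TetR libraries, which the choice of regions did not use, resembled WT at the called regions more than TetR-MYBTA. All 3 TetR libraries had a peak at 1297 WT-only regions (40.8%) but at 167 TetR-MYBTA-only regions (11.9%). None of the 3 had one at 656 WT-only regions (20.6%) and at 670 TetR-MYBTA-only regions (47.8%). Regions with a peak in 3 of the 6 libraries, of both lines, stood between, with 28.8% and 23.5%. By library, TetR replicates 1, 2 and 3 had a peak in 37.0%, 31.0% and 25.6% of TetR-MYBTA-only regions and in 66.5%, 61.6% and 54.0% of WT-only regions. The TetR lists were longer, with 58762 to 70230 peaks. Cut to the shortest length, all 3 TetR libraries had a peak in 8.76% of TetR-MYBTA-only and 32.3% of WT-only regions, and none had one in 63.4% and 29.2%. Without WT replicate 2 all 3 TetR libraries had a peak in 20.4% of TetR-MYBTA-only regions.

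**Figure D2:**
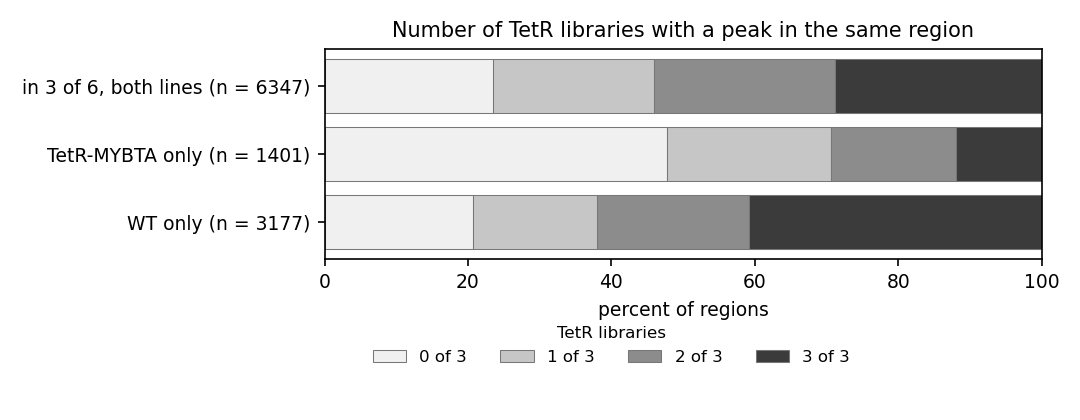
Share of regions (x axis, percent) with a peak in 0, 1, 2 or 3 of the 3 TetR libraries, for regions in 3 of 6 libraries of both lines, TetR-MYBTA-only and WT-only regions. No TetR library had a peak in 47.8% of TetR-MYBTA-only regions, and all 3 had one in 40.8% of WT-only regions.

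The highest TetR-MYBTA-only regions lay between genes in 6 of 10 cases and inside genes in the others. Named here are those also called at equal length and with no WT peak within 1 kb. The first, at chr8:128602708-128602937, stood at places 93.5, 94.5 and 95.3 in the TetR-MYBTA libraries, lowest first, 82.7 kb from Itgb1, which encodes an integrin chain. None of the 3 TetR libraries had it. The next, at chr11:32196169-32196430 inside Il9r, an interleukin receptor gene, stood at 88.4, 91.8 and 92.2. Regions at chr4:52586316-52586547, 9.73 kb from Toporsl, and chr15:47322050-47322263, 258 kb from Csmd3, followed at mean places 90.2 and 89.3. Tmem178 held a pair of them, chr17:80948822-80949030 and chr17:80949470-80949710, at mean places 88.04 and 84.2, and also a WT-only region at its gene end, chr17:80944602-80944994. The others lay 15.6 kb from Nup160, a nuclear pore gene, 3.12 kb from Rc3h1, the Roquin-1 gene, 38.9 kb from Bhlhe40, a circadian regulator, and inside Fbxo11. Of these 10 regions 7 had no peak in any TetR library and 3 had one in 1 TetR library.

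Of the 1228 TetR-MYBTA-only regions with no WT peak within 1 kb, few were at a gene end, 32 in all (2.61%). The WT-only counterpart was 257 of 2758 (9.32%), and 17.3% of all regions were at gene ends. The highest were at Rdh5, a retinol dehydrogenase gene, at mean place 74.8, at Zfp558 (56.4), at Pvalb, the parvalbumin gene (54.7), and at Myocos (48.5). The Rdh5 region was in all 3 TetR libraries too, while those of Zfp558, Pvalb and Myocos were in none. Ddx58, which encodes the RNA sensor RIG-I, and Arih1, a ubiquitin ligase gene, had a TetR-MYBTA-only region that was also in all 3 TetR libraries. None of these genes belongs to the fixed lists of blood progenitor, MYB partner or pluripotency genes. Those lists are short, with 29 blood progenitor and 17 MYB partner genes of 20665, so no conclusion is drawn from that.

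The highest WT-only regions stood at similar places. A region at chr9:76695669-76695878, 129 kb from Fam83b, stood at places 89.4, 91.7 and 94.9 in WT, lowest first, and was in all 3 TetR libraries. Regions inside Bfsp1, a lens filament gene (chr2:143890136-143890358), at a gene end of Ptms (chr6:124918012-124918245) and at a gene end of Mok, a kinase gene (chr12:110840831-110841039), had mean places of 89.6, 88.2 and 85.0. The regions of Bfsp1 and Ptms were in all 3 TetR libraries and that of Mok was in none. Others lay 3.90 kb from Nectin3 and inside Uck2, Bhlhe40, Plpp3 and Smpd3. At Bhlhe40 the lines thus differed in both directions, with a WT-only region in the gene and a TetR-MYBTA-only region 38.9 kb away. Of the 10 leading WT-only regions 7 were in all 3 TetR libraries.

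One leading WT-only region, chr7:3217630-3217869, lay 0.757 kb before the miR-290 cluster, a run of microRNAs that embryonic stem cells make in large amounts. It was about as near, 0.774 kb, to a gene end of Nlrp12. Of 919 microRNA hairpins, 16 had a WT-only region within 2 kb and 0 a TetR-MYBTA-only one. A single region can count for several neighbouring hairpins. This one lies within 2 kb of miR-290a, miR-291a, miR-292a and miR-291b. Of all regions 3.26% were WT-only and 1.44% TetR-MYBTA-only, but these shares are per region and not per hairpin. The number of hairpins near any region was not counted, so no conclusion about microRNAs is drawn from these counts. The region near miR-290 was singled out after its values were seen. It stood at places 90.2, 90.8 and 92.1 in the WT libraries, was missing from all 3 TetR-MYBTA libraries, and was in TetR replicate 3 (place 91.2) and in no other TetR library. The regions 11.8 kb and 6.24 kb before the cluster were in all 9 libraries, and the one 4.75 kb before it was missing only from TetR-MYBTA replicate 1. Some of the cluster's mature microRNAs share a seed, bases 2 to 8, which pairs with target RNAs and is in capitals here. Sequences are 5′ to 3′, from RefSeq on GRCm38.p6. Printed are the members whose seed occurs in 3 of them, to show some products of the cluster, chr7:3218626-3220841 on the plus strand. Other members, not printed, have other seeds.
mmu-miR-291a-3p: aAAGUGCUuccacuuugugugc
mmu-miR-294-3p: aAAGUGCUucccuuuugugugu
mmu-miR-295-3p: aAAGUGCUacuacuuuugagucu
mmu-miR-290a-5p: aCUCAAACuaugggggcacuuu
mmu-miR-292a-5p: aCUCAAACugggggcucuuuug
mmu-miR-293-5p: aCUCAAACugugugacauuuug
The first 3 share the seed AAGUGCU and the last 3 the seed CUCAAAC. These peak lists hold no measure of the microRNAs themselves.

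TetR-MYBTA-only regions were gathered on chromosomes 1 and 11. Chromosome 1 held 333 of them (3.63% of its 9181 regions, against 1.44% over all autosomes) and chromosome 11 held 166 (2.56%). Chromosome 19 held 6 TetR-MYBTA-only (0.269%) and 123 WT-only regions (5.52%, against 3.26%). Chromosome 1 took 10.4%, 10.5% and 10.3% of autosomal peaks in TetR-MYBTA and 7.88%, 7.81% and 7.84% in WT. Chromosome 19 took 1.94%, 1.97% and 1.94% against 2.52%, 2.45% and 2.51%. Neither chromosome's libraries overlapped between lines (exact permutation p = 0.1 each, adjusted p = 0.119 over 19 chromosomes). That was so on 16 of 19 chromosomes (84.2%), higher in TetR-MYBTA on chromosomes 1, 3, 11 and 14 and lower on 12, so the absence of overlap alone sets no chromosome apart.

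Within chromosomes 1 and 11 the excess was larger in one stretch each, and on chromosome 11 it was not limited to it. Chromosome 1 from 88 Mb held 292 TetR-MYBTA-only regions (4.71%) and took 7.32 ± 0.0400% of peaks in TetR-MYBTA against 4.83 ± 0.0394% in WT (SD, n = 3 each), a ratio of 1.52. Below 88 Mb there were 41 (1.37%) and the ratio was 1.04. Chromosome 11 below 44 Mb held 101 (4.73%) with a ratio of 1.53, and the rest of it 65 (1.49%) with a ratio of 1.13, from 4.89 ± 0.112% and 4.32 ± 0.0539% of peaks (SD, n = 3 each). These boundaries come from an earlier look at the same lists. Leaving out both stretches and chromosome 19, 1002 TetR-MYBTA-only regions (1.15%) and 2984 WT-only regions (3.44%) were left, of which 62.5% and 42.6% lay between genes. The difference in position was thus about as large elsewhere in the genome.

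**Figure D3:**
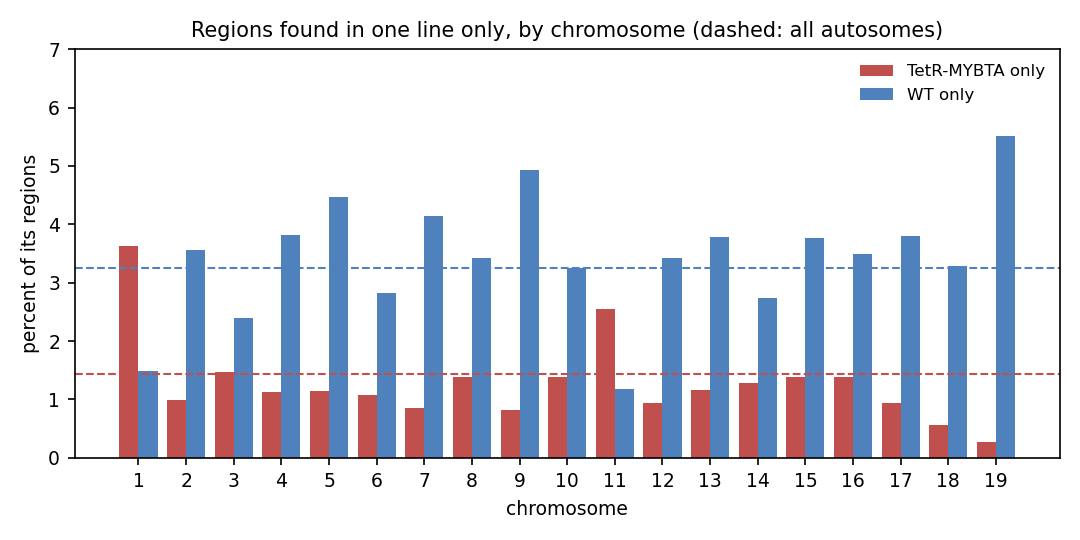
Percent of the merged regions of each autosome (x axis) that were TetR-MYBTA-only (red) or WT-only (blue), with the values over all autosomes as dashed lines. Chromosomes 1 (3.63%) and 11 (2.56%) stand out for TetR-MYBTA-only regions and chromosome 19 (5.52%) for WT-only regions.

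Long genes on distal chromosome 1 held the most TetR-MYBTA-only regions. Cntnap5a, which encodes a neuronal adhesion protein, had 7 of 31 regions TetR-MYBTA-only inside it or within 10 kb, and none WT-only. Brinp3, a neuronal gene, had 5 of 43. Mgat5, a glycosyltransferase gene, had 4 of 30 and Hmcn1, a matrix protein gene, 4 of 25. Cdh20, a cadherin gene, had 4 of 15 and Pam, a peptide-amidating enzyme gene, 4 of 27. Dpp10 had 4 of 47 and, on chromosome 10, Pcdh15 had 4 of 38. These genes span 227 kb to 1554 kb, and all but Pcdh15 lie in the chromosome 1 stretch. Of the regions in that stretch 4.71% were TetR-MYBTA-only, against 1.44% over all autosomes. Among WT-only regions, 3.26% of all regions, Ptprn2, Rbfox1 and Rbms3 had 6 each, of 35, 25 and 20 regions. Ephb2, Nedd4l and Cdh13 had 5 each, of 17, 23 and 24. Ptprn2 encodes a phosphatase-like protein of secretory vesicles, Rbfox1 a splicing regulator and Ephb2 an ephrin receptor. These were spread over 6 chromosomes, and of the 6 regions of Ptprn2, 5 were in all 3 TetR libraries and none was missing from all 3.

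On full lists, Hox genes and neural regulators held the highest shares of WT-only regions among 45 gene classes, counting regions inside a gene or within 50 kb. At equal length keratin genes did (10.2%), so the order of classes depended on list length. The Hox genes, which set position along the body axis and are silenced by Polycomb in embryonic stem cells, had 71 regions, of which 6 were WT-only (8.45%, against 3.26% over all regions) and 0 TetR-MYBTA-only. The Hox windows held 18, 20 and 14 peaks in the TetR-MYBTA libraries and 45, 46 and 39 in WT, or 0.0331 ± 0.00275% and 0.0747 ± 0.00719% of autosomal peaks (SD, n = 3 each), a ratio of 0.443. Every TetR-MYBTA library was lower than every WT library (exact p = 0.1; adjusted p = 0.173 over 45 classes). By cluster, Hoxd had 2, 4 and 2 peaks against 14, 12 and 12, Hoxc 5, 4 and 2 against 11, 9 and 10, Hoxa 6, 7 and 5 against 10, 13 and 10, and Hoxb 5, 5 and 5 against 10, 12 and 7. The lines did not overlap at any of the 4 clusters. The TetR libraries had 18, 12 and 9 peaks at Hoxd and 16, 14 and 10 at Hoxa, and 6, 5 and 3 at Hoxb. WT-only regions lay in Hoxd11, at chr2:74681629-74681837, where a TetR-MYBTA peak was within 1 kb, in Hoxc5 and at the end of Hoxd3. Those of Hoxc5 and Hoxd3 stood low, at mean places 19.75 and 16.83, and were not called at equal length. At equal length 3 of 45 Hox regions (6.67%) were WT-only, against 2.76% of all regions.

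**Figure D4:**
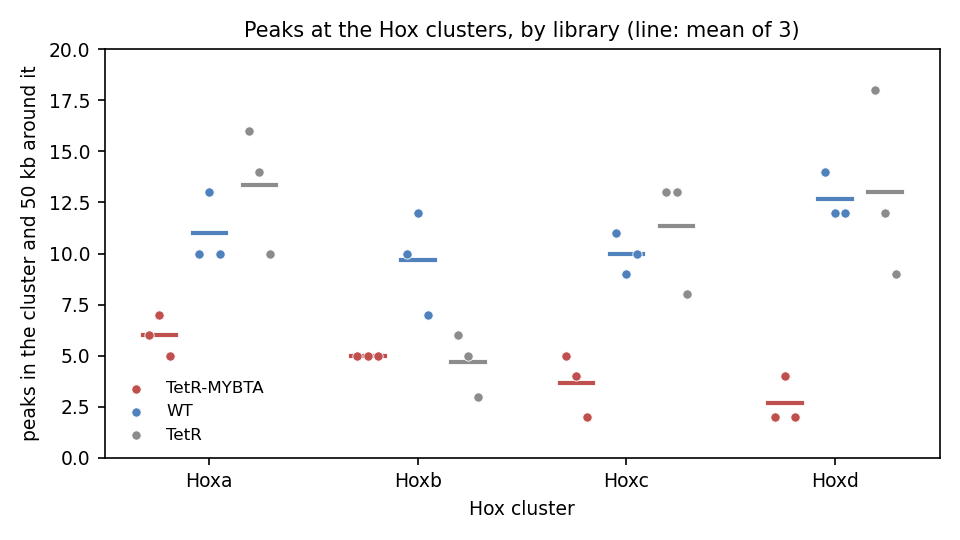
Number of peaks (y axis) in each Hox cluster and the 50 kb around it, 1 point per library and a line at the mean of 3, for TetR-MYBTA, WT and TetR. At Hoxd the TetR-MYBTA libraries have 2, 4 and 2 peaks and the WT libraries 14, 12 and 12.

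Neural regulators had 18 WT-only regions of 213 (8.45%) and 2 TetR-MYBTA-only. Their peaks numbered 112, 110 and 91 in TetR-MYBTA and 143, 144 and 139 in WT, a share lower by a ratio of 0.817 with no overlap (exact p = 0.1). With windows of 10 kb in place of 50 kb the lines overlapped, at 0.120% and 0.131% of peaks (exact p = 0.3). Of the 29 genes, 5 held a WT-only region inside or within 1 kb. The region at the ends of Zic1 and Zic4, neighbouring zinc finger genes of the neural plate, had a TetR-MYBTA peak within 1 kb. En1, a midbrain homeobox gene (chr1:120605162-120605374), Pax7 (chr4:139821438-139821858) and Myt1l, a neuronal factor gene (chr12:29883302-29883538), had a WT-only region with no such neighbour. Homeobox genes outside the Hox clusters had 62 WT-only (5.52%) and 8 TetR-MYBTA-only regions (0.712%) of 1124. Msx2, Nkx2-3 and Onecut1 had one at a gene end, that of Onecut1 with a TetR-MYBTA peak within 1 kb. Sox genes had 10 of 192 (5.21%) and Fox genes 17 of 356 (4.78%), with regions at Sox5, Sox6, Foxq1 and Foxp1. Trophoblast genes had 9 of 184 (4.89%), of which 2 were in Tead4 and 1 each in Krt18 and Ets2. Not every developmental class shared this: mesoderm and endoderm regulators had 3 of 190 (1.58%) and T-box genes 2 of 122 (1.64%), below the background, and WNT pathway genes 19 of 505 (3.76%), a little above it. At equal length the order was not the same: T-box genes then had 7.45% and trophoblast genes 8.39% WT-only regions, against 2.76% overall. Tet2, a DNA demethylation enzyme gene, and Jarid2, a Polycomb partner gene, had WT-only regions at mean places 88.1 and 83.7, each with a TetR-MYBTA peak within 1 kb.

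Some classes of genes active in all cells also had WT-only shares above the background. Housekeeping genes had 10 WT-only regions of 200 (5%) and 0 TetR-MYBTA-only within 50 kb, and 8 of the 10 had no TetR-MYBTA peak within 1 kb. Only 1 of these genes, Gapdh, had a WT-only region inside or within 1 kb. That region was nearest to Iffo1 and had a TetR-MYBTA peak within 1 kb, so the count describes the surroundings of these genes. Mitochondrial ribosomal protein genes had 29 of 652 (4.45%) and cytosolic ribosomal protein genes 24 of 718 (3.34%), the latter at the background. Imprinted genes had 9 of 203 (4.43%), of which Gnas, Igf2, Kcnq1, Inpp5f, Osbpl5 and Usp29 held 1 each, and a TetR-MYBTA-only region in Plagl1. Solute carrier genes had 118 of 3252 (3.63%) and 21 TetR-MYBTA-only regions (0.646%). Over the 45 classes 19 were above the background of WT-only regions and 11 above that of TetR-MYBTA-only regions. Peak shares did not overlap between lines in 26 of 45 classes (57.8%), of which 19 were lower and 7 higher in TetR-MYBTA. Read against that, a class whose libraries do not overlap is not thereby set apart.

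**Figure D5:**
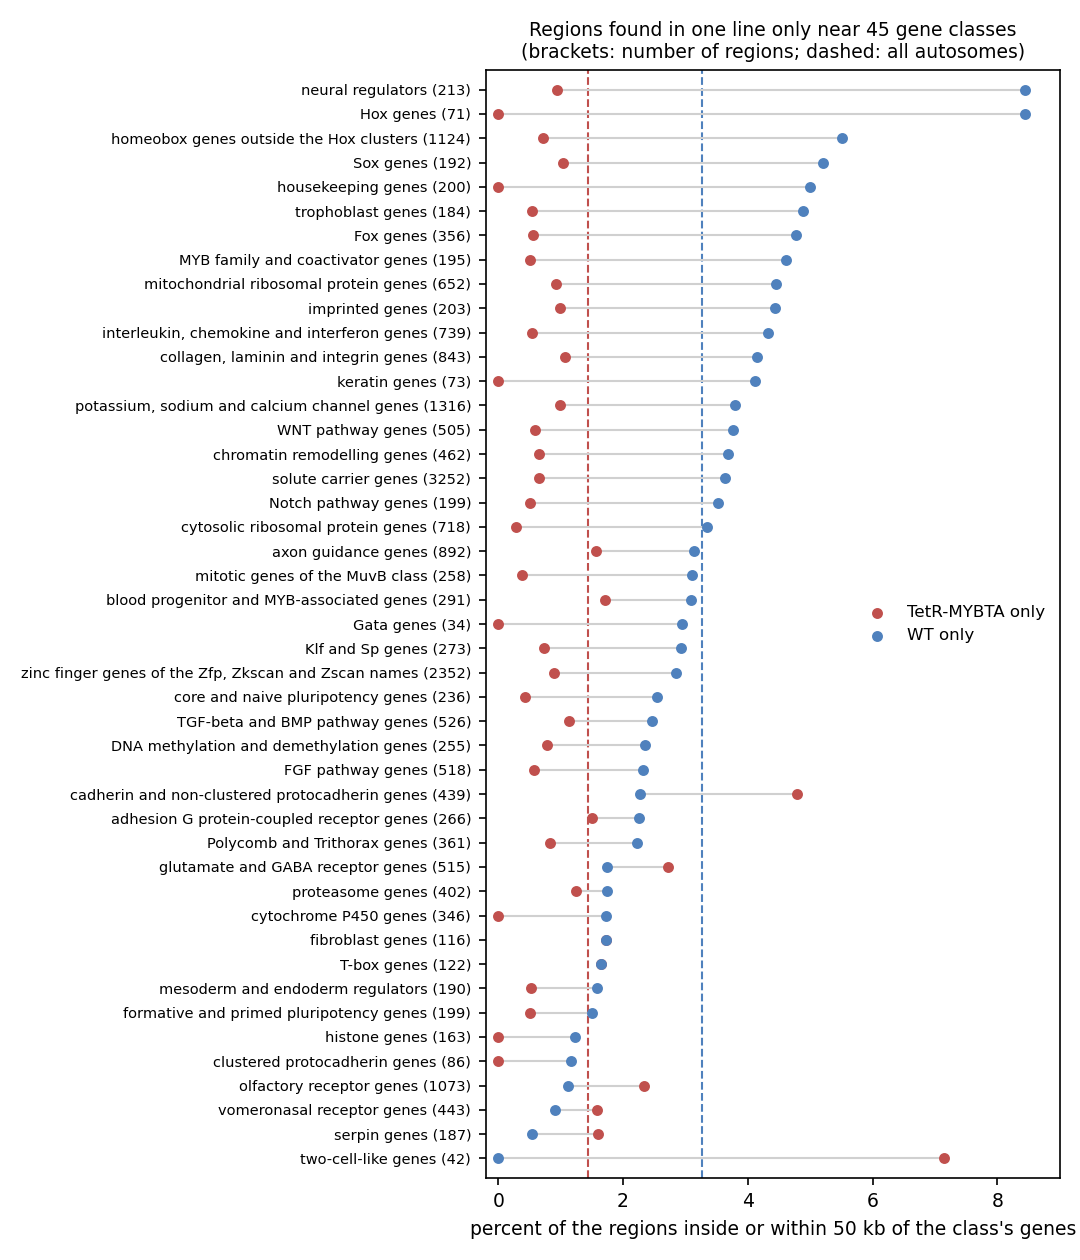
Percent of the merged regions inside or within 50 kb of the genes of 45 classes (y axis, number of regions in brackets) that were TetR-MYBTA-only (red) or WT-only (blue), with all autosomal regions as dashed lines. Hox genes and neural regulators have the highest WT-only share on these full lists (8.45%), and cadherin, glutamate receptor, olfactory receptor and 2-cell-like genes lie right of the red dashed line with fewer WT-only regions.

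On full lists TetR-MYBTA-only regions were the rarer kind (1.44% against 3.26%), and few classes had more of them than WT-only regions. These were cadherin, glutamate and GABA receptor, olfactory receptor, vomeronasal receptor, 2-cell-like and serpin genes. At equal length adhesion G protein-coupled receptor genes (6 against 3) and blood progenitor genes (5 against 2) had more as well. Cadherin and non-clustered protocadherin genes, which mediate adhesion between cells, had 21 TetR-MYBTA-only regions of 439 (4.78%, against 1.44%) and 10 WT-only (2.28%). Of these 21, 18 were inside a gene and 18 had no WT peak within 1 kb. Without chromosomes 1, 11 and 19 the class kept 14 (3.66%, against 1.13% of all regions there). Cdh20 held 4 and Cdh18 held 3, the highest at chr15:23089546-23089812, which was in no TetR library. Their peaks numbered 268, 246 and 193 in TetR-MYBTA and 190, 233 and 209 in WT, and as a share of all autosomal peaks they were higher in TetR-MYBTA, 0.449 ± 0.0119% against 0.362 ± 0.0173% (SD, n = 3 each; exact p = 0.1). Glutamate and GABA receptor genes had 14 of 515 (2.72%), with regions in Grm5, Grm7 and Grid1, against 9 WT-only. Outside chromosomes 1, 11 and 19 they had 11 (2.49%, against 1.13%).

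Olfactory receptor genes, large clusters kept closed outside the nose, had 25 TetR-MYBTA-only (2.33%) and 12 WT-only regions (1.12%) of 1073. Their share of autosomal peaks was 1.24 ± 0.00690% in TetR-MYBTA and 0.993 ± 0.0108% in WT (SD, n = 3 each; exact p = 0.1). Of the 25, 20 lay between genes, and Olfr113, Olfr427 and Olfr20 had one at a gene end. Without chromosomes 1, 11 and 19 the class kept 17 of 888 (1.91%, against 1.13% of all regions there). Vomeronasal receptor genes had 7 (1.58%) and 4 WT-only of 443. At equal length they had 22 (6.38%, against 2.7% of all regions) and 3 WT-only of 345. Genes of the 2-cell-like state, a rare state in embryonic stem cell cultures, had 3 TetR-MYBTA-only (7.14%) and 0 WT-only regions of 42, all 3 between genes, and 34, 26 and 24 peaks against 22, 21 and 21 in WT. Axon guidance genes had 14 TetR-MYBTA-only (1.57%) and 28 WT-only regions (3.14%) of 892, both near the background, with 3 TetR-MYBTA-only regions in Robo2 and 4 WT-only regions in Ephb2.

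Pluripotency genes had similar peak shares in the lines. The 18 core and naive genes had 6 WT-only (2.54%) and 1 TetR-MYBTA-only region (0.424%) of 236, both below the background, although at equal length 8 of 199 (4.02%) were WT-only, above the 2.76% of all regions. They had 145, 131 and 106 peaks in TetR-MYBTA against 134, 141 and 145 in WT. Their shares overlapped, 0.243 ± 0.00671% and 0.241 ± 0.0105% (SD, n = 3 each; exact p = 1). Pou5f1, which encodes OCT4, had a WT-only region at chr17:35509415-35509662, 1.12 kb from the gene's end and inside it, at mean place 74.8, which was also in all 3 TetR libraries and was called at equal length. Esrrb, a nuclear receptor gene, had 2 WT-only regions, the higher at chr12:86385901-86386260, and 11, 12 and 11 peaks in TetR-MYBTA against 16, 15 and 16 in WT. TetR-MYBTA replicate 2 had a peak at a gene end of Pou5f1 instead. Nanog, with 1 kb to either side, had no peak in TetR-MYBTA, 1 in WT replicate 3 and none in WT replicates 1 and 2. Sox2 had 1 peak in each of the 6 libraries, and Klf4 had 2, 1 and 1 against 2, 2 and 2.

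Genes tied to MYB showed no gathering of TetR-MYBTA-only regions. The MYB family and its coactivators had 1 (0.513%) of 195, and 9 WT-only regions (4.62%), of which Myb, Ncoa1 and Ncoa2 held 1 each. Blood progenitor and MYB-associated genes had 5 TetR-MYBTA-only (1.72%) and 9 WT-only regions (3.09%) of 291, both near the background on full lists. At equal length they had 5 (2.155%) and 2 (0.862%) of 232, against 2.7% and 2.76% over all regions. The MYB family and its coactivators then had 2 TetR-MYBTA-only (1.258%) and 5 WT-only regions (3.145%) of 159. Bcl2, which blocks cell death, and Bcl11a each held a TetR-MYBTA-only region, at mean places 16.3 and 14.04, and neither was called at equal length. These 2 genes are on chromosome 1 and chromosome 11. Without chromosomes 1, 11 and 19 the list kept 1 TetR-MYBTA-only region (0.526%, against 1.13% of all regions there). Myb itself had 2 peaks in each TetR-MYBTA library and 4, 4 and 3 in WT, with a WT-only region at chr10:21130963-21131204. That region, at mean place 27.38, was not called at equal length, nor was that of Ncoa2 (23.65), while that of Ncoa1 (43.48) was. Mitotic genes of the MuvB class, which the MYB relative MYBL2 controls, had 1 TetR-MYBTA-only (0.388%) and 8 WT-only regions (3.10%) of 258, among them Kif11 and Tpx2, which encode spindle proteins.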

How the data were processed

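Tn5 libraries of 3 lines were mapped to mm10. The submitters' processing notes name HOMER 4.11, deepTools 3.5.5, Picard and Bowtie2, and for read quality and trimming FastQC with Trim Galore 0.6.10. Per the file headers, peaks were called in each library at an FDR of 0.001 and a local p-value of 0.0001, with 4-fold more tags than the surrounding 10 kb and at least 11 or 12 tags. For the Tn5 offset and blacklisted regions, no handling was stated in the labels or headers. The deposited score is 1 in every row and peak width is constant within a library but for 1 other width, so peak height is unknown and no interval per peak can be given. Row order was used as rank in its place. It follows the authors' peak number with a rank correlation of at least 0.99.

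Peaks on the 19 autosomes that overlapped by at least 1 bp were merged (Python 3.11.15, pandas 2.3.3, numpy 2.4.6, scipy 1.17.1, matplotlib 3.10.9). Distances are to either end of 20665 protein-coding genes of the RefSeq table for GRCm38.p6, used without strand. Gene classes are 15 hand-written lists (352 of 368 symbols used) and 30 families defined by symbol, with a window of 50 kb. The members and lists were chosen with earlier results of these data known. The 10 highest regions per direction are named, among those also called at equal length with no peak of the other line within 1 kb. So are the 6 genes per direction with most called regions. Only some of the 8 highest regions at gene ends are named. The same holds for the highest list and family members with a region inside or within 1 kb. Genes named beyond these were chosen after their values were seen. Library shares were compared by two-sided exact permutation over 3 against 3 libraries, which cannot go below p = 0.1, with Benjamini-Hochberg adjustment over classes or chromosomes. Alternatives were equal list lengths, the upper 50% of each list, merging across 200 bp, 50% overlap, no peak of the other line within 1 kb, 2 of 3 libraries, X included, gene ends of 2.5 kb, class windows of 10 kb, dropping chromosomes 1, 11 and 19, each library left out and a replicate block. Dropping only the stretches of 1 and 11 with chromosome 19, and applying the alternatives to the between-gene and TetR shares of called regions, were choices made after seeing the data. The code was tested on simulated lists.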

Additional observations from a re-analysis of the deposited data

How the results depend on the processing

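Peak presence depends on list length, and all 25 results were recomputed. TetR-MYBTA-only regions numbered 1821 to 3525 with each library left out, 4975 with 2 of 3 libraries asked for and 896 without chromosomes 1, 11 and 19. WT-only regions numbered 3710 to 5454 with each library left out, 2041 at equal length, 2015 in the upper 50% of each list and 8506 with 2 of 3 libraries. The other alternatives kept both counts within 1.5 times. The share of TetR-MYBTA-only regions with a peak in all 3 TetR libraries was 8.76% at equal length, 13.8% in the upper 50%, 9.53% with 2 of 3 libraries, 14.6% without chromosomes 1, 11 and 19, 14.2% without the stretches of 1 and 11 and chromosome 19, and 9.62% to 20.4% with each library left out. For WT-only regions it was 32.3% at equal length, 28.0% with 2 of 3 libraries and 32.0% to 46.0% with each library left out. It was higher for WT-only than for TetR-MYBTA-only regions under every alternative run.

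Of 184 alternatives to 19 differences in peak shares (TetR-MYBTA minus WT, percentage points), 174 kept the direction and 10 reversed it. The gene-end difference of 0.110 was -2.21 at equal length, -0.253 with gene ends of 2.5 kb, and -1.08 to 0.725 with each library left out (-0.372 without WT replicate 2). Housekeeping genes gave 0.00397 in a 10 kb window. Core and naive pluripotency genes gave -0.0138 at equal length and -0.00388 to 0.00644 with each library left out (-0.00182 without TetR-MYBTA replicate 1). Blood progenitor genes gave -0.00249 in a 10 kb window and -0.0144 without chromosomes 1, 11 and 19. The cause was not tested.

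Same-numbered libraries did not stand out as pairs. Over 1217 windows, deviations from each line's mean correlated at -0.0738, 0.109 and -0.0102 between same-numbered TetR-MYBTA and WT libraries. Differently numbered ones gave -0.159 to 0.158. As each line's deviations sum to 0, these values cannot show whether libraries were handled in pairs. With a replicate block the differences were -3.44 inside genes and 3.33 between genes as before, with an exact sign-permutation p of 0.25, the smallest that 3 pairs allow.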
